A study of Mus musculus with 6 samples.

Results

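The mRNA of 10 genes tied to transforming growth factor-beta (TGF-beta) signalling was compared in blood cells sorted as neutrophils. The cells came from mice with ligature-induced periodontitis (LIP) and from controls. Signalling itself was not measured. The genes were the rising genes *Lrg1* and *Snai1*, the ligand gene *Tgfb1*, and the receptor genes *Tgfbr1*, *Tgfbr2* and *Eng*. The signal transducers *Smad2*, *Smad3*, *Smad4* and *Smad7* completed the set. *Lrg1* and *Snai1* were selected on their fold changes between LIP and control, which were among the largest in these libraries, so their levels are described here and not tested. The other 8 genes were named for their place in the pathway. All 10 were found among the 29097 genes listed, and 9 were among the 10440 genes tested, which had an FPKM (fragments scaled to gene length and library total) of 1 or more on average over the 6 libraries. *Eng* lay under that level.

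The 6 Smart-seq2 libraries were prepared from CD45+CD11b+Ly6G+ cells sorted from peripheral blood (PB), 3 from LIP mice and 3 from control (Ctrl) mice. Both groups were C57BL/6 wild type males of 8 weeks, and each library pooled the cells of 5 mice. LIP mice carried silk ligatures around the second molars of both jaws on both sides for 14 d, and Ctrl mice were left unligated. Because the pools are the replicates, p-values measure the spread between pools, and the difference between single mice is not seen.

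TGF-beta is secreted bound to a latency peptide, from which integrins, thrombospondin and proteases release it. The free ligand joins a type II receptor (*Tgfbr2*) to a type I receptor (*Tgfbr1*), which phosphorylates Smad2 and Smad3. These enter the nucleus with Smad4 and switch target genes on or off, among them *Smad7*, whose product blocks the type I receptor and so limits the signal. *Lrg1* encodes leucine-rich alpha-2-glycoprotein, a secreted protein that neutrophils carry in granules and that can join TGF-beta to the accessory receptor endoglin (*Eng*) on endothelial cells. *Snai1* encodes Snail, a zinc finger repressor known as a TGF-beta target that drives epithelial-mesenchymal transition.

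The sequences just upstream of *Lrg1* and *Snai1* are shown because these genes were selected on their rise and both are tied to the pathway by their products. They run 5' to 3' on the strand of the gene, come from the RefSeq promoter table (GRCm38.p6), which held 7 of the 10 genes, and end at the base before the gene starts in the deposited table. The first is chr17:56122002-56122196 (minus strand, 195 bases, 54.4% G or C) and the second chr2:167537945-167538194 (plus strand, 250 bases, 70.0% G or C). Capitals mark every match to 4 motifs, searched on both strands. The Smad box is CAGAC and reads GTCTG on the other strand. The E-box that Snail binds is CAGGTG and reads CACCTG on the other strand. The motif of STAT factors is TTCNNNGAA, which reads alike on either strand. For C/EBP factors the letters TTGCNNAA were used, in which N is any base.
Lrg1: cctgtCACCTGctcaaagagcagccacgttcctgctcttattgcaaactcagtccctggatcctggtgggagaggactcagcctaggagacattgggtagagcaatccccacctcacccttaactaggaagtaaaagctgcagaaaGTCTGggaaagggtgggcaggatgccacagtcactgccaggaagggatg
Snai1: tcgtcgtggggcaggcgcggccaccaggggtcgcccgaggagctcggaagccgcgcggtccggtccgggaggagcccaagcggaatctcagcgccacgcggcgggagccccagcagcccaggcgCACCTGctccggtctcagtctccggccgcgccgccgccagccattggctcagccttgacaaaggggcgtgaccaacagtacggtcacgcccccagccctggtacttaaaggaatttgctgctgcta
The *Lrg1* window held a Smad box match that began 49 bases upstream of the gene and a Snail E-box match that began 190 bases upstream. The *Snai1* window held a Snail E-box match that began 126 bases upstream. No matches overlapped, and neither window held the STAT or C/EBP letters. Short motifs of this kind are common: in windows of 195 bases, 35% of all 27025 promoters held the Smad box and 14.1% the Snail E-box, and in windows of 250 bases 42.1% and 17.1% did. The STAT and C/EBP letters occurred in 5.77% and 7.97% of the shorter windows and in 7.18% and 9.55% of the longer ones. Among the other genes, the Smad box occurred 2 times upstream of *Eng* and 1 time upstream of *Tgfbr2*, which also held the C/EBP letters 1 time. *Tgfb1*, *Tgfbr1* and *Smad3* held none of the 4. A match is a description of letters, and binding was not measured.

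*Lrg1* was abundant in the PB neutrophil libraries of both groups and far higher in LIP. In CPM (counts scaled to library size after TMM, which sets the libraries against each other by the bulk of their genes), *Lrg1* (ENSMUSG00000037095, chromosome 17, 56119678 to 56122001, minus strand) stood at 906, 1025 and 889 in the Ctrl libraries and at 5940.4, 5992 and 5883 in the LIP libraries. The LIP libraries lay close to each other and every LIP value was above every Ctrl value. Ctrl libraries averaged 939.7 ± 74.0 CPM and LIP libraries 5938 ± 54.8 CPM (SD, n = 3), 6.32 times as high, with a log2 fold change of 2.66. Per gene length, its level of 679.8 ± 45.6 FPKM in Ctrl became 3474 ± 36.4 FPKM in LIP (SD, n = 3), which placed it 66th of the 29097 listed genes by mean FPKM in Ctrl and 25th in LIP.

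*Snai1* was a gene of low to moderate level that stood out by its ratio. Its CPM (ENSMUSG00000042821, chromosome 2, 167538195 to 167542814, plus strand) was 14.8, 14.2 and 13.1 in Ctrl and 93.9, 95.8 and 96.6 in LIP. The groups did not overlap. Ctrl libraries averaged 14.0 ± 0.834 CPM and LIP libraries 95.4 ± 1.39 CPM (SD, n = 3), 6.79 times as high, and the log2 fold change was 2.76. Per gene length it reached 8.83 ± 0.609 FPKM in Ctrl and 48.5 ± 0.935 FPKM in LIP (SD, n = 3), and its place by mean FPKM moved from 3918 to 877. These values rest on 757 to 878 reads per Ctrl library and 4505 to 4827 reads per LIP library.

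In the order of log2 fold changes over the 10440 tested genes, *Snai1* was 23rd and *Lrg1* 31st, and among the 3387 genes that averaged 10 FPKM or more they were 2nd and 5th. A log2 fold change of 2 or more was found in 1.74% of the genes tested. This order is what brought the pair into view and is no result about it.

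**Figure D1:**
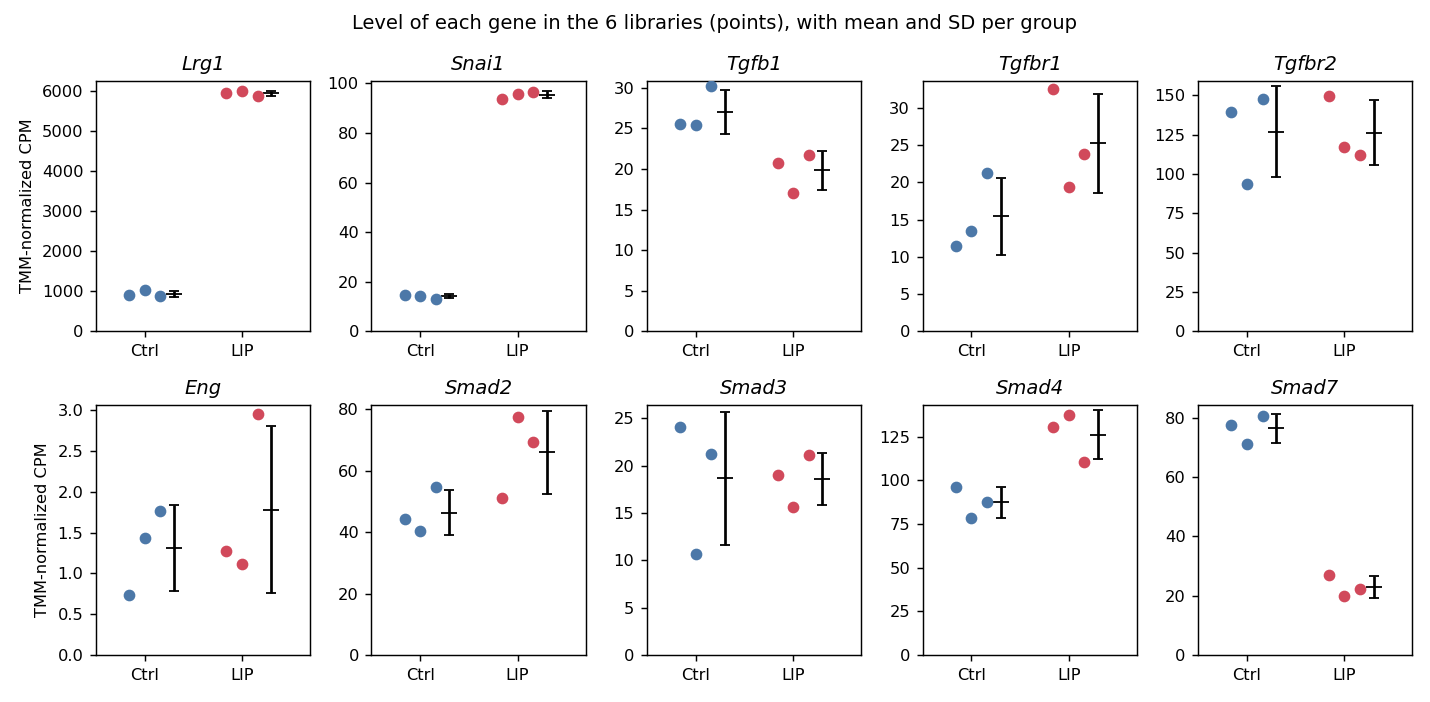
TMM-normalized CPM (vertical axis, linear from 0, a scale of its own in each panel) of the 10 genes in the 3 Ctrl (blue) and 3 LIP (red) libraries, with the mean and SD of each group as a black bar. *Lrg1*, *Snai1* and *Smad4* lie higher in every LIP library than in every Ctrl library, *Tgfb1* and *Smad7* lie lower, and the other 5 overlap.

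The ratio of *Lrg1* to *Snai1* within a library does not depend on how libraries are scaled, and it was nearly the same in both groups. There were 61.4, 71.9 and 67.7 *Lrg1* reads for each *Snai1* read in the Ctrl libraries and 63.3, 62.6 and 60.9 in the LIP libraries, so the ranges overlapped while each gene was over 6 times as high in LIP. By the root mean square difference of log2(CPM + 0.5) centred on each gene's mean over the 6 libraries, the genes nearest to *Lrg1* were *Mrgpra2b* (0.0691), *Snai1* (0.0745) and *Ifitm1* (0.0930), where the median over all tested genes was 1.40. The genes nearest to *Snai1* were *Lrg1* (0.0745), *Mrgpra2b* (0.107) and *Tmem268* (0.119), where the median was 1.43. The same 3 genes were nearest to each when libraries were scaled on their totals. *Mrgpra2b*, a Mas-related receptor, and *Ifitm1*, an interferon-induced membrane protein, belong to multigene families, among whose members the counting could have divided reads. Likeness over 3 libraries against 3 mostly reflects a like ratio between the groups. Because *Lrg1* and *Snai1* were both selected on a large rise in these libraries, their likeness is largely built in by the selection and is no result.

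**Figure D2:**
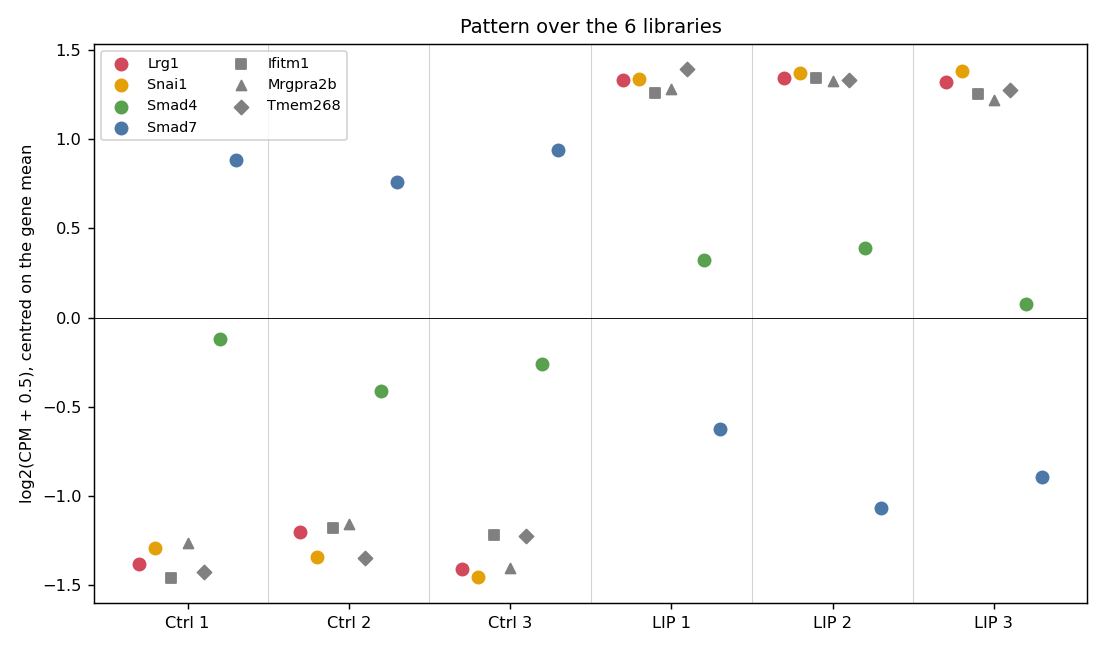
Log2(CPM + 0.5) centred on the mean of each gene (vertical axis) in each library (horizontal axis), for *Lrg1*, *Snai1*, *Smad4* and *Smad7* (circles) and the 3 other genes nearest in pattern (grey). *Lrg1*, *Snai1* and the grey genes sit together below 0 in Ctrl and above 0 in LIP, while *Smad7* sits above 0 in Ctrl and below 0 in LIP.

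Although the gate was CD45+CD11b+Ly6G+, markers of other blood cells were measured in these libraries and their levels differed between the groups. In bulk samples fewer cells of a type cannot be told apart from less RNA per cell. All 22 mature neutrophil markers, *Ly6g* of the sort and *S100a8* among them, were detected in every library and passed the test as higher in LIP, with a median log2 fold change of 1.89 and a summed level of 19602 to 22006 CPM in Ctrl and 76435 to 81332 CPM in LIP. All 15 B cell markers, such as *Cd79a* and *Ms4a1*, were lower in LIP (median -2.53, summed level 21738 to 24532 CPM in Ctrl and 4751 to 4835 CPM in LIP), as were all 16 T cell markers (median -2.42, 1047 to 1126 and 222 to 259 CPM). Of the 13 erythroid genes, 12 were listed and all 9 tested were lower (median -3.01, 131317 to 139786 and 17796 to 18547 CPM), and *Hemgn* was at 0 in a library. All 15 platelet markers were higher (median 1.23, 1619 to 1935 and 4098 to 4918 CPM), and so were 11 of 12 monocyte markers (median 1.01, 812 to 977 and 1799.6 to 1877 CPM). Of the 9 NK cell markers, 3 were higher (median 0.20, 622 to 722 and 710.3 to 770.4 CPM). Among all tested genes 26.5% were higher and 27.2% lower, so the NK cell count is near the background and is no result about these markers. No B cell, T cell, platelet, monocyte or NK cell marker was at 0 in any library, and the primary granule genes *Mpo*, *Elane*, *Ctsg* and *Ms4a3* were at 0 in at least 1.

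Against the neutrophil markers of the same library, *Lrg1* and *Snai1* remained higher in LIP, by a smaller step. For each 1000 reads of the 22 neutrophil genes there were 46.2, 46.6 and 41.8 *Lrg1* reads in Ctrl and 77.6, 73.7 and 77.0 in LIP, a log2 difference of 0.76. *Snai1* had 0.753, 0.647 and 0.616 reads in Ctrl and 1.23, 1.18 and 1.26 in LIP, a log2 difference of 0.87. In both genes the groups did not overlap on this measure. These values come from the contrast on which the pair was selected and are a description. The part of the other blood cells in the CPM differences of *Lrg1* and *Snai1* was not tested.

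**Figure D3:**
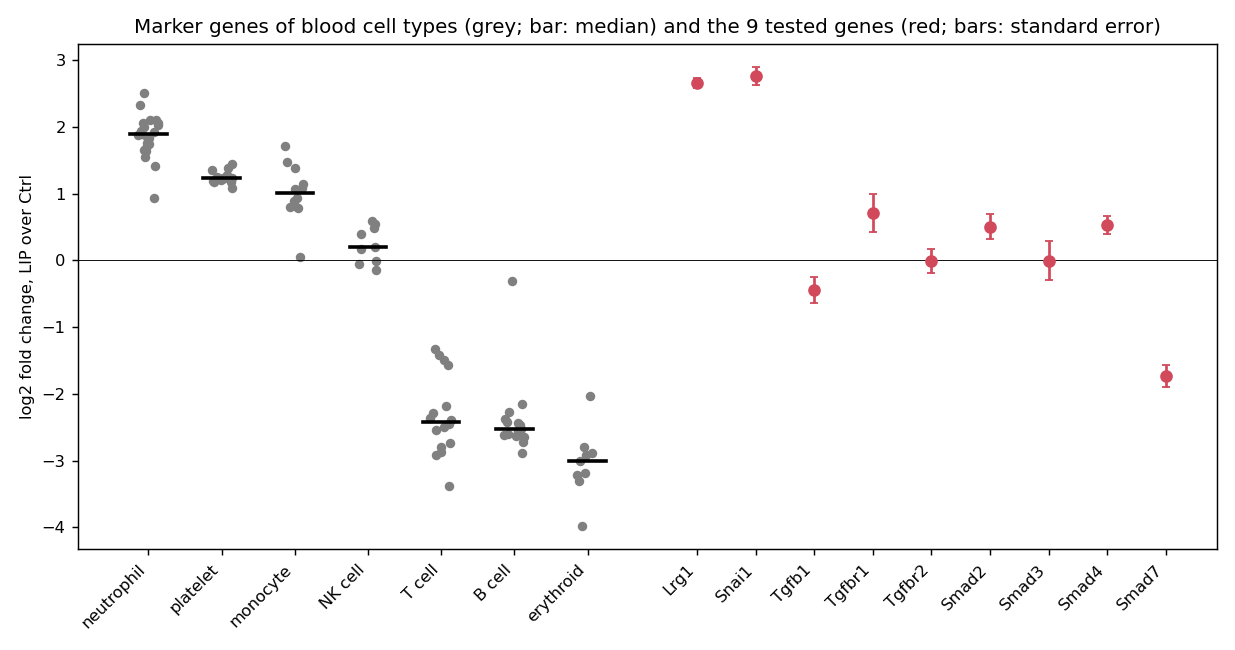
Log2 fold change of LIP over Ctrl (vertical axis) of the tested markers of 7 blood cell types (grey points, with the median as a black bar) and of the 9 tested genes (red, with standard errors). *Lrg1* and *Snai1* lie above the neutrophil median of 1.89, *Smad7* lies between 0 and the T cell median of -2.42, and the other 6 lie between -0.45 and 0.71.

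The question for the pathway genes was whether the mRNA of the machinery that carries the TGF-beta signal differed with the ligature. *Smad7*, the inhibitor that the pathway itself induces, fell strongly in LIP. *Smad4* and *Smad2*, which carry the signal, rose slightly with TMM scaling, but these rises depended on the scaling, as given below. With TMM scaling the ligand and both signalling receptors did not pass the test, though each passed under another scaling. Of the 9 tested genes, 4 were higher (with *Lrg1* and *Snai1*, which were chosen for it), 1 was lower and 4 were not called, in a comparison in which 53.6% of all tested genes were called, 26.5% higher and 27.2% lower at a Benjamini-Hochberg adjusted p of 0.05 by edgeR's quasi-likelihood test. In CPM, the groups did not overlap for 3 of the 9 genes in the higher direction and 2 in the lower. Of all tested genes, 30.3% and 33.1% did not overlap in these directions, and 63.4% in either direction. The share called is thus near the background and is no result about these genes.

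*Smad7* (ENSMUSG00000025880, chromosome 18, 75367529 to 75395935) was measured at 77.4, 71.1 and 80.6 CPM in Ctrl and 27.0, 19.7 and 22.2 CPM in LIP. All 3 LIP libraries were below all 3 Ctrl libraries, by a wide gap. The mean went from 76.4 ± 4.88 to 23.0 ± 3.68 CPM (± SD over 3 libraries), which is a log2 fold change of -1.73 (standard error 0.159, edgeR adjusted p = 8.63e-06). It remained under an adjusted p of 0.05 in each alternative analysis run. Against *Smad4* reads in the same library, *Smad7* reads numbered 0.802, 0.905 and 0.922 in Ctrl and 0.206, 0.143 and 0.201 in LIP, a log2 difference of -2.27. Against *Smad2* reads, Ctrl libraries had ratios of 1.75, 1.76 and 1.47 and LIP libraries of 0.527, 0.254 and 0.320, a log2 difference of -2.24. Relative to the mRNA of the transducing Smads, that of the inhibitory Smad was thus lower in each LIP library, whatever the scaling. The B and T cell markers fell over the same libraries, with medians of -2.53 and -2.42, and their part in the result was not tested. Per 1000 reads of the neutrophil markers, *Smad7* had 3.95, 3.23 and 3.79 reads in Ctrl and 0.352, 0.242 and 0.291 in LIP.

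*Smad4*, the common partner of all signalling Smads (ENSMUSG00000024515, chromosome 18, 73639009 to 73703780), was at 96.5, 78.5 and 87.5 CPM in Ctrl and 131, 137 and 110.4 CPM in LIP. In CPM the groups did not overlap, although the distance between the nearest libraries was small. In FPKM they overlapped, with 26.9 in Ctrl replicate 1 and 24.6 in LIP replicate 3. The mean rose from 87.5 ± 8.98 to 126 ± 14.1 CPM (± SD over 3 libraries), which is a log2 fold change of 0.53 (standard error 0.132, edgeR adjusted p = 0.00647). The pseudogene *Gm50126* lies within it, at a level near 0. *Smad2*, which the activated receptor phosphorylates (ENSMUSG00000024563, chromosome 18, 76241580 to 76310963), was at 44.2, 40.4 and 54.7 CPM in Ctrl and 51.1, 77.5 and 69.4 CPM in LIP. The lowest LIP library was below the highest Ctrl library, so the groups overlapped. Its mean rose from 46.4 ± 7.39 to 66.0 ± 13.5 CPM (± SD over 3 libraries), which is a log2 fold change of 0.51 (standard error 0.183, edgeR adjusted p = 0.0375).

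The rises of *Smad4* and *Smad2* rest on the scaling of libraries. Scaling on library totals moved the median log2 fold change of all tested genes from -0.09 to -0.42, and with it *Smad4* to 0.20 and *Smad2* to 0.18, neither of which passed the test. Scaled on the neutrophil markers, which moved that median to -1.99, both turned negative, at -1.38 and -1.40. A further reference was the reads of 10320 other tested genes in the same library. It left out the tested cell type markers, erythroid genes included, and the genes of the set itself. On that measure the log2 differences were 0.02 for *Smad4* and -0.01 for *Smad2*. These values hold for that choice of reference, and library totals, which keep the markers, gave the 0.20 and 0.18 above. The call of *Smad2* was also lost without Ctrl replicate 1, without Ctrl replicate 2, without LIP replicate 2 and without LIP replicate 3, with log2 fold changes between 0.38 and 0.66 over the 6 fits.

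*Smad3*, the other Smad that the receptor phosphorylates (ENSMUSG00000032402, chromosome 9, 63646767 to 63757994), was at 24.1, 10.7 and 21.2 CPM in Ctrl and 19.0, 15.7 and 21.1 CPM in LIP. The Ctrl libraries spanned the whole range of the LIP libraries. Its log2 fold change was -0.00 (standard error 0.297, edgeR adjusted p = 0.993), and an interval of 2 standard errors ran from -0.60 to 0.59, so changes of moderate size in either direction were not detectable. Per gene length, *Smad4* was the most abundant of these transducers in Ctrl at 24.0 ± 2.87 FPKM, before *Smad2* at 5.38 ± 0.868 and *Smad3* at 3.44 ± 1.34 FPKM (SD, n = 3). No *Smad3* library of a group reached the lowest *Smad2* library of that group. *Smad7* stood between them in Ctrl, at 17.2 ± 1.27 FPKM, and in LIP, at 4.18 ± 0.648 FPKM, it was below *Smad4* at 28.0 ± 3.10 and *Smad2* at 6.19 ± 1.30 FPKM, and above *Smad3* at 2.76 ± 0.407 FPKM (SD, n = 3). The ranges of *Smad7* and *Smad2* overlapped in LIP, at 3.60 to 4.88 and 4.76 to 7.29 FPKM.

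*Tgfb1*, the TGF-beta ligand of blood cells (ENSMUSG00000002603, chromosome 7, 25687002 to 25705077), was at 25.5, 25.4 and 30.2 CPM in Ctrl and 20.7, 17.1 and 21.7 CPM in LIP. Each LIP value was below each Ctrl value, with means of 27.0 ± 2.73 and 19.8 ± 2.42 CPM (SD, n = 3). The log2 fold change of -0.45 (standard error 0.192) did not pass the test (edgeR adjusted p = 0.0715). With library totals as the scaling it was -0.78 and passed (edgeR adjusted p = 0.00634). It also passed in limma on log2(FPKM + 1) and on log2(FPKM + 0.1) (limma adjusted p = 0.00899 and 0.00888). On the neutrophil scaling, where 90% of all tested genes were lower, it was -2.34 (edgeR adjusted p = 4.1e-06).

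The receptors were led by *Tgfbr2*, which binds the ligand first. *Tgfbr2* (ENSMUSG00000032440, chromosome 9, 116084293 to 116175360) was at 139, 93.8 and 148 CPM in Ctrl and 149.8, 117 and 112 CPM in LIP, with full overlap. Its log2 fold change was -0.01 (standard error 0.181, edgeR adjusted p = 0.972), with an interval of 2 standard errors from -0.37 to 0.35. *Tgfbr1*, the kinase that phosphorylates Smad2 and Smad3 (ENSMUSG00000007613, chromosome 4, 47353222 to 47414931), was at 11.5, 13.4 and 21.3 CPM in Ctrl and 32.5, 19.4 and 23.8 CPM in LIP. The third Ctrl library lay above the lowest LIP library. Its log2 fold change of 0.71 (standard error 0.284) did not pass the test (edgeR adjusted p = 0.0559). It passed without Ctrl replicate 3 (edgeR adjusted p = 0.0188), without LIP replicate 2 (edgeR adjusted p = 0.0405), with median-of-ratios size factors (edgeR adjusted p = 0.0438) and with DESeq2 (adjusted p = 0.018), and it turned to -1.17 on the neutrophil scaling. Per gene length *Tgfbr2* was higher than *Tgfbr1* in both groups, with 15.8 ± 3.77 against 2.39 ± 0.802 FPKM in Ctrl and 12.7 ± 2.01 against 3.17 ± 0.824 FPKM in LIP (SD, n = 3). For each *Tgfbr1* read, Ctrl libraries held 12.1, 6.98 and 6.94 *Tgfbr2* reads and LIP libraries 4.61, 6.03 and 4.70, each below all Ctrl values.

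*Eng*, the endothelial co-receptor through which LRG1 is known to act (ENSMUSG00000026814, chromosome 2, 32646595 to 32682658), was barely detected. Its level was 0.184, 0.352 and 0.439 FPKM in Ctrl and 0.251, 0.222 and 0.601 FPKM in LIP, from 44 to 138 reads per library. The groups overlapped and no test was made. *Eng* overlaps *Fpgs* on the opposite strand, and since the use of strand in counting is not given, reads in the shared stretch cannot be assigned with certainty. The endothelial markers *Cdh5*, *Kdr*, *Tie1* and *Egfl7* were each at 0 in a library or more, and the 7 endothelial markers in the table summed to 106 to 123 CPM in Ctrl and 134 to 175 CPM in LIP.

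**Figure D4:**
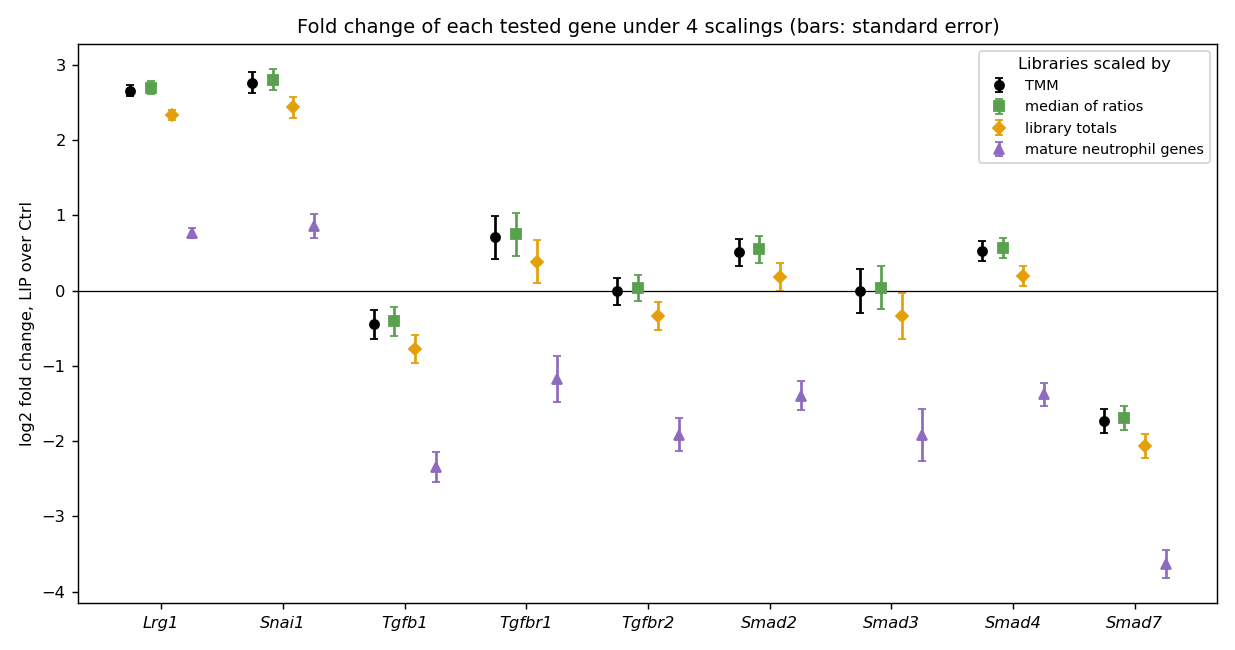
Log2 fold change of LIP over Ctrl with its standard error (vertical axis) for the 9 tested genes under 4 ways of scaling the libraries (colours). *Lrg1* and *Snai1* lie above 0 and *Smad7* below 0 under each, whereas *Tgfbr1*, *Smad2* and *Smad4* turn negative when libraries are scaled on the mature neutrophil genes.

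Around these genes, 117 genes of the pathway were listed by role, of which 109 were in the table and 65 were tested. Of those, 26 were higher in LIP, 9 were lower and 30 were not called, beside 26.5% higher and 27.2% lower among all tested genes, and the median log2 fold change was 0.18 beside -0.09. Without the 10 genes above, 23 of 57 were higher and 8 lower. With library totals these became 17 higher and 16 lower, where 18.2% of all tested genes were higher and 40% lower. On the neutrophil scaling 1 of the 65 was higher and 57 were lower, where 0.383% and 90% of all tested genes were. These 3 pairs of shares are the background for the counts of each list that follows, and no list was tested against it. On the neutrophil scaling, of the genes named below as higher, *Snai1* aside, *Id1* and *Tgfbi* kept a positive log2 fold change (0.32 and 0.21) while the others turned negative. The lists by role are described in turn from ligand to target.

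Of the 14 superfamily ligands in the table, only *Tgfb1* and *Gdf15* were tested, and neither was called. The activin gene *Inhba* was too low to be tested, at 3.11, 5.59 and 2.74 CPM in Ctrl and 7.85, 8.53 and 6.92 CPM in LIP.

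Of the genes that store and release latent TGF-beta, 5 of the 6 tested rose and none fell, beside 26.5% and 27.2% of all tested genes. With library totals 4 rose and none fell, beside 18.2% and 40%. The median log2 fold change was 1.25, or 0.92 with library totals and -0.65 on the neutrophil scaling. *Ltbp1*, which tethers the latent complex to matrix, rose from 6.24 ± 0.893 to 21.2 ± 7.22 CPM (SD, n = 3; log2 fold change 1.76, edgeR adjusted p = 0.00056). *Furin*, the protease that cuts the TGF-beta precursor, rose from 65.2 ± 8.39 to 184.7 ± 13.5 CPM (SD, n = 3; log2 fold change 1.5, edgeR adjusted p = 5.52e-06). *Mmp9*, a granule protease of neutrophils that can free TGF-beta, had a log2 fold change of 1.84 (edgeR adjusted p = 3.59e-07) and is also among the 22 neutrophil markers. *Thbs1*, thrombospondin-1, an activator of latent TGF-beta that platelets carry, had 1.00 (edgeR adjusted p = 0.00828), or 0.67 with library totals, which did not pass (edgeR adjusted p = 0.0562). The 15 platelet markers rose with it, with a median of 1.23, and their part was not tested. *Nrros*, which holds latent TGF-beta on myeloid cells, had 0.58 (edgeR adjusted p = 0.000393). The activating integrin chain *Itgav* was not called (0.18, edgeR adjusted p = 0.473).

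Of the 5 receptors and co-receptors tested, 1 rose and 1 fell, or none and 1 with library totals. *Acvrl1*, the type I receptor ALK1, was at 11.5, 6.44 and 7.94 CPM in Ctrl and 9.30, 18.9 and 22.8 CPM in LIP, where the groups overlapped (log2 fold change 0.98, edgeR adjusted p = 0.0402), and it did not pass with library totals (0.65, edgeR adjusted p = 0.152). *Bambi*, a decoy receptor that lacks a kinase, fell from 12.4 ± 0.823 to 5.78 ± 2.25 CPM (SD, n = 3; log2 fold change -1.10, edgeR adjusted p = 0.0181). *Acvr1b*, the activin type I receptor, was not called (log2 fold change 1.02, edgeR adjusted p = 0.0729).

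Of the Smads, *Smad5*, which carries BMP signals, fell from 16.2 ± 2.04 to 6.27 ± 0.940 CPM (SD, n = 3; log2 fold change -1.37, edgeR adjusted p = 0.00127). *Smad1*, of the same branch, did not pass the test (-0.45, edgeR adjusted p = 0.12), and *Smad6* and *Smad9* were too low to be tested. Among 18 partners and receptor adaptors, 3 rose and 4 fell, beside 26.5% and 27.2% of all tested genes. With library totals 1 rose and 8 fell, and on the neutrophil scaling none rose and 18 fell. The largest fall was that of *Foxo1*, a forkhead factor that joins Smads at target genes, from 163.9 ± 5.05 to 33.7 ± 0.526 CPM (SD, n = 3; log2 fold change -2.28, edgeR adjusted p = 2.15e-07). *Runx3*, a Runt factor, fell by 1.09 on the log2 scale (edgeR adjusted p = 0.00237). *Trap1* fell by 1.19 (edgeR adjusted p = 0.00134), but it encodes a mitochondrial chaperone, not a receptor adaptor, and stands on the list by mistake. The B and T cell markers fell with these genes, and their part was not tested. *Tab2*, an adaptor of the kinase TAK1, *Foxo3*, a second forkhead factor, and the co-activator *Ep300* rose, with log2 fold changes of 0.77, 0.75 and 0.43. With library totals these were 0.44, 0.42 and 0.10, of which *Foxo3* and *Ep300* did not pass (edgeR adjusted p = 0.0925 and 0.591).

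Of the genes listed as antagonists, 5 of 17 tested genes were higher and 3 lower, beside 26.5% and 27.2% of all tested genes. The median log2 fold change was 0.13, or -0.20 with library totals, which gave 4 higher and 5 lower beside 18.2% and 40%. The 17 include *Rnf111*, which is not an antagonist of Smad signalling and was not called (0.38, edgeR adjusted p = 0.169). The highest, *Ltbp1*, is listed here too and counted among the 5, but it tethers the latent complex, as given above, and does not act on Smads. After it came *Tob1*, an antiproliferative protein that binds Smads (log2 fold change 1.20, edgeR adjusted p = 0.000805), and the co-repressor *Tgif2* (1.04, edgeR adjusted p = 0.00581). The lowest were *Pmepa1*, *Smad7* and *Bambi*. *Pmepa1*, which keeps Smad2 and Smad3 from the receptor and is itself induced by TGF-beta, was at 7.39, 10.02 and 7.56 CPM in Ctrl and 4.09, 0.912 and 1.05 CPM in LIP (log2 fold change -2.04, edgeR adjusted p = 0.0111).

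Of the 26 genes listed as induced by TGF-beta in many cell types, 20 were tested. The direction in which TGF-beta moves each of them in these cells, the *Id* genes included, was not tested. Of the 20, 12 were higher in LIP, 3 were lower and 5 were not called. The 12 include *Snai1*, which was selected on its rise. Without it, 11 of 19 were higher and 3 lower, beside 26.5% and 27.2% of all tested genes, and with library totals 10 were higher and 5 lower, beside 18.2% and 40%. The median log2 fold change of the 19 was 0.63, or 0.30 with library totals and -1.26 on the neutrophil scaling. *Id1*, an inhibitor of basic helix-loop-helix factors, rose from 15.2 ± 1.51 to 70.8 ± 3.49 CPM (SD, n = 3; log2 fold change 2.22, edgeR adjusted p = 1.3e-06). *Tgfbi*, a matrix protein named for its induction, rose from 133.9 ± 15.7 to 579.9 ± 13.1 CPM (SD, n = 3; log2 fold change 2.12, edgeR adjusted p = 2.81e-07). *Id3*, the close relative of *Id1*, fell from 34.4 ± 2.58 to 16.95 ± 2.03 CPM (SD, n = 3; log2 fold change -1.02, edgeR adjusted p = 0.000941). Within a library there were 0.374, 0.453 and 0.508 *Id1* reads for each *Id3* read in Ctrl and 4.29, 3.57 and 4.80 in LIP, a log2 difference of 3.25. With *Smad7* and *Pmepa1* the 3 lower genes of this list were thus 2 inhibitors of the pathway and *Id3*, while *Ccn2*, a target known from stromal cells, was too low to be tested. All of these genes also answer to signals other than TGF-beta, and *Tgfbi* is abundant in monocytes, of whose 12 markers 11 were higher with a median of 1.01. The B and T cell markers fell in the libraries in which *Id3* and *Pmepa1* fell, with medians of -2.53 and -2.42. The part of these cells in the results was not tested.

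**Figure D5:**
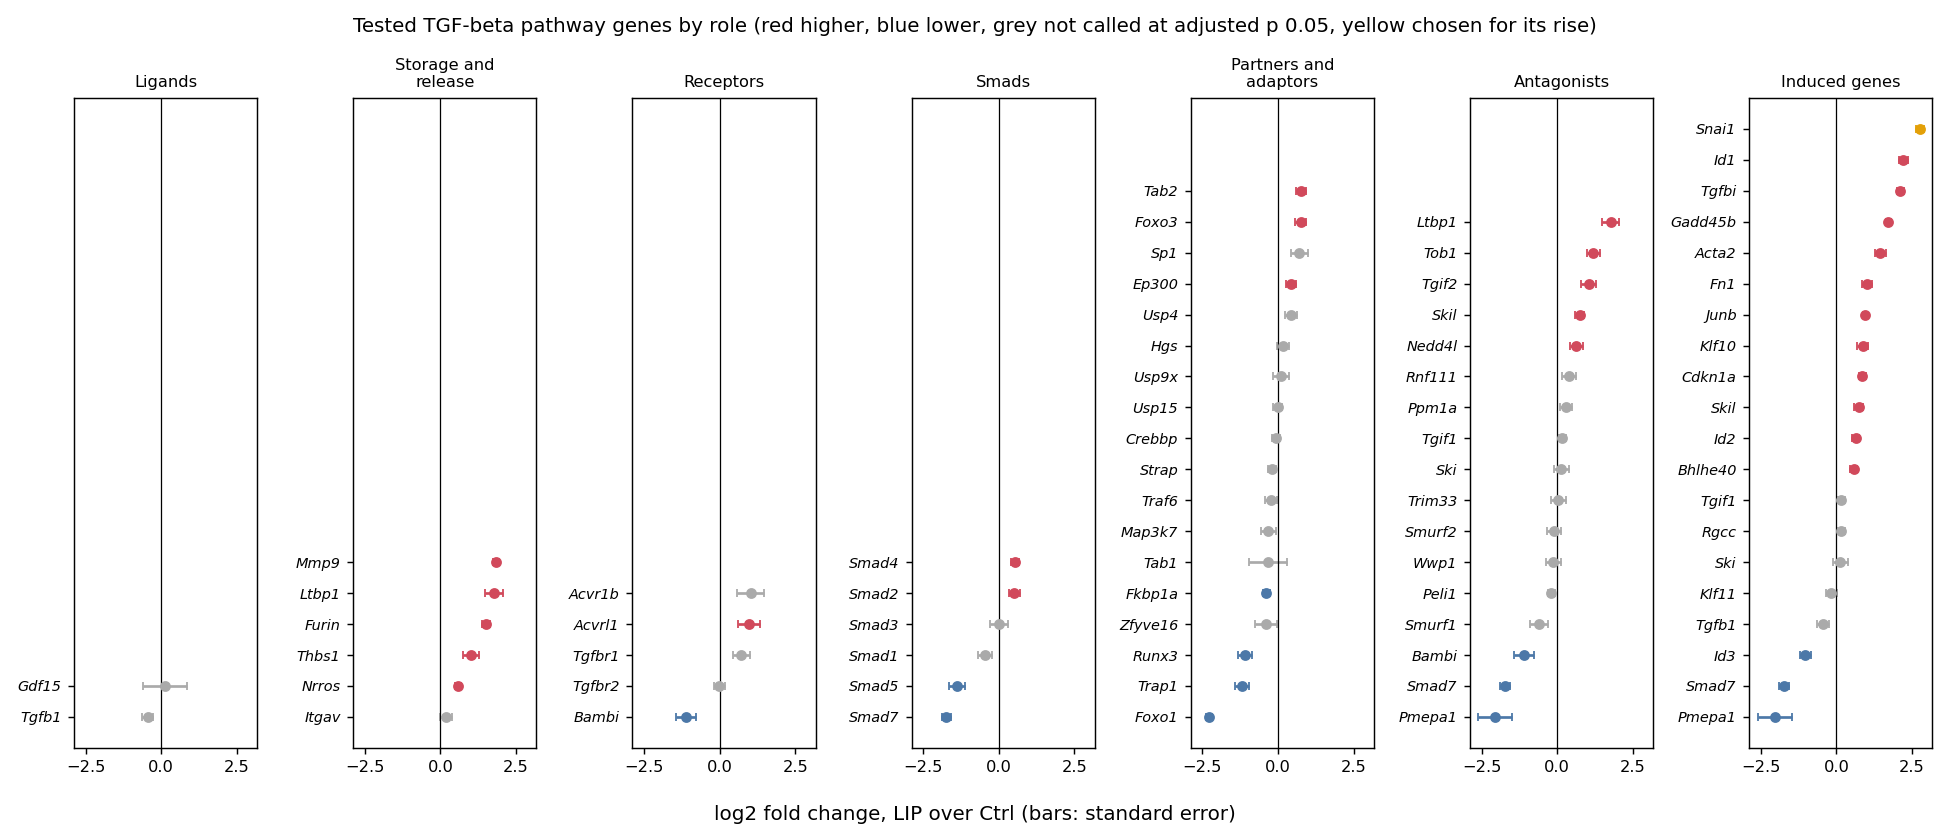
Log2 fold change of LIP over Ctrl with its standard error (horizontal axis) of the tested pathway genes, 1 panel for each role, with genes in more than 1 role drawn in each. With TMM scaling, storage and release genes lie to the right of 0 (on the neutrophil scaling their median is -0.65), the Smads and antagonists lie on both sides, and *Smad7* and *Pmepa1* lie far to the left among the induced genes.

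*Snai1* was the only Snail family gene measured above the level for testing, as *Snai2* and *Snai3* were near 0. A list held factors and targets of epithelial-mesenchymal transition and also genes whose products act on Snail. Of its 14 tested genes, *Snai1* included, 7 were higher in LIP, 1 was lower and 6 were not called. The list pools genes of unlike roles, so its counts give no direction for the transition program. Without *Snai1*, 6 of 13 were higher and 1 lower, beside 26.5% and 27.2% of all tested genes. With library totals 5 of the 13 were higher and 4 lower, beside 18.2% and 40%, and on the neutrophil scaling none was higher and 11 were lower, beside 0.383% and 90%. *Pak1*, a kinase that phosphorylates Snail, rose from 7.95 ± 0.294 to 21.8 ± 1.07 CPM (SD, n = 3; log2 fold change 1.46, edgeR adjusted p = 0.000254). *Cldn1*, a tight junction gene that Snail is known to repress, was low but rose from 3.29 ± 1.07 to 8.40 ± 1.84 CPM (SD, n = 3; log2 fold change 1.35, edgeR adjusted p = 0.011). *Gsk3b*, the kinase that marks Snail for decay, and *Zeb2*, a partner repressor, had log2 fold changes of 0.31 (edgeR adjusted p = 0.0408) and 0.73 (edgeR adjusted p = 0.000878), and *Gsk3b* was at -0.02 with library totals. *Tcf3*, a helix-loop-helix factor of lymphocyte development, fell by 1.27 (edgeR adjusted p = 0.000133), beside the falls of the B and T cell markers given above; their part was not tested. *Cdh1*, the classical Snail target, was too low to be tested. As background, *Vim*, *Zeb2* and *Pak1* also have roles of their own in leukocytes.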

How the data were processed

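Smart-seq2 RNA-seq of sorted PB neutrophils (3 Ctrl and 3 LIP libraries, each a pool of 5 mice) was analysed. The deposited values were raw counts of reads on each gene. Beside them the authors deposited FPKM, which they scaled to gene length and to the library total. The submitters' processing notes name cutadapt 1.9, FastQC and the GRCm38 build. The aligner, the counting tool and the use of strand are not given in the sources used here. Library totals were 52186555 to 57262379 counts. Reads carry no molecular identifiers, so counting error understates the error of low counts. For the 50 gene names found on several rows, the row of highest mean FPKM kept the name. The other rows stayed in the table under their gene identifiers. Chi-square per gene between libraries of the same group was 39.6 to 78.0, far above sampling noise.

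Tests were limited to genes averaging 1 FPKM or more and run in edgeR 4.0.16 (R 4.3.3, quasi-likelihood test, TMM, Benjamini-Hochberg adjustment over 10440 genes, threshold 0.05). TMM factors were 1.10 to 1.14 in Ctrl and 0.887 to 0.902 in LIP. The common biological coefficient of variation was 0.265. The standard error of a log2 fold change was obtained as its size over the root of F. The fits were also run on simulated counts in which a small share of genes changed, equally up and down. Those counts held no shift in cell composition, so that run cannot speak to the choice of scaling.

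The genes and lists were chosen with earlier results of these data known. Named were the 10 genes, the 3 highest and 3 lowest called genes of each role list, tested receptors, Smads and Snail genes, markers beside a result, and the 3 genes nearest in pattern. *Itgav*, *Inhba*, *Gdf15*, *Rnf111*, *Ccn2*, *Cdh1* and *Vim* were named outside this rule, after their values were seen. Alternatives were other scalings (library totals, median-of-ratios factors, the neutrophil markers), other filters (none, a mean FPKM of 5, filterByExpr), DESeq2 1.42.0, limma 3.58.1 on log2(FPKM + 1) and log2(FPKM + 0.1), a replicate block and leaving out each library. The counts without the 10 genes or without the selected pair, and the lists and background shares by scaling, were added after seeing the data.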

Additional observations from a re-analysis of the deposited data

How the results depend on the processing

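Over the results and alternatives run, 244 values were compared with those reported, and 188 were taken as kept. Fold changes were kept if they held their direction and side of the threshold or stayed within the spread. A count of calls was kept if it lay within a set factor of the reported count. Library totals, with 1898 genes higher beside 2766 and 4179 lower beside 2835, were kept by this measure. *Smad7* stayed under the threshold in each alternative, from -3.63 to -1.63 in log2 fold change. Scaling on the neutrophil markers lowered every log2 fold change, since their summed level was higher in LIP (mean 78094 CPM) than in Ctrl (20966 CPM). On it 40 genes were higher and 9393 lower, 1 and 57 of the pathway and 1 and 11 of the transition list. The log2 fold changes were 0.76 for *Lrg1*, 0.86 for *Snai1*, -2.34 for *Tgfb1*, -1.17 for *Tgfbr1*, -1.91 for *Tgfbr2*, -1.40 for *Smad2*, -1.92 for *Smad3* and -1.38 for *Smad4*. Library totals gave 18 lower pathway genes, 4 lower transition genes, and 2.33 (*Lrg1*), 2.44 (*Snai1*), -0.78 (*Tgfb1*), 0.18 (*Smad2*) and 0.20 (*Smad4*). A mean FPKM of at least 5 tested fewer genes and gave 1761 higher, 2 and 3 of the transition list, and 2.48 (*Lrg1*), 2.58 (*Snai1*) and 0.33 (*Smad2*). *Smad2* lost its call with no filter (0.54) and with filterByExpr (0.55), and *Tgfbr1* gained its call with median-of-ratios factors (0.75) and DESeq2 (0.75). limma, whose log2(FPKM + pseudocount) understates low genes and uses library totals, gave with pseudocounts of 1 and 0.1 pathway falls of 14 and 14, transition falls of 4 and 4, and fold changes of 2.35 and 2.36 (*Lrg1*), 2.33 and 2.45 (*Snai1*), -0.61 and -0.74 (*Tgfb1*), 0.16 and 0.19 (*Smad2*) and 0.21 and 0.22 (*Smad4*), with 16 pathway and 4 transition rises at 0.1. Against 10320 other tested genes within a library, *Lrg1* was at 2.15, *Snai1* at 2.26, *Smad7* at -2.25, *Smad4* at 0.02 and *Smad2* at -0.01. This reference left out the tested cell type markers and the genes of the set itself, which library totals keep. The causes of the other moves were not tested.

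Leaving out each library gave 2419 to 2615 genes higher and 2255 to 2770 lower, 22 to 26 and 8 to 9 of the pathway, 6 to 8 and 1 of the transition list, and 2.62 to 2.75 (*Lrg1*), 2.72 to 2.81 (*Snai1*), -0.52 to -0.35 (*Tgfb1*), 0.49 to 1.02 (*Tgfbr1*), -0.17 to 0.12 (*Tgfbr2*), 0.38 to 0.66 (*Smad2*), -0.26 to 0.23 (*Smad3*), 0.46 to 0.62 (*Smad4*) and -1.86 to -1.63 (*Smad7*). Whether the replicate numbers pair the libraries is not given in the sources used here. Deviations of same-numbered libraries correlated at 0.021, 0.0562 and 0.0363, none over 0.1, and those of other pairs at -0.0504 to 0.0217. Not every library correlated best with its own number. With 3 libraries a group, correlations this weak cannot show whether the libraries were paired. With the replicate block, 2724 genes were higher and 2822 lower, and no call among the 10 genes changed. Pools of 5 mice in 3 libraries a group limit what small changes of *Smad3*, *Tgfbr1* and *Tgfbr2* could be seen, and composition and expression cannot be separated in bulk.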
